A study of Homo sapiens with 13 samples.

Results

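Transcripts of 9 genes were examined in CCRF-CEM, a cell line from a human T cell leukemia (T-ALL). Their products make NAD+ from salvaged precursors, supply or remove those precursors, or, for NADK, turn NAD+ into NADP+. The genes were NAMPT, NAPRT1, NMNAT1, NMNAT2, NMNAT3, NADK, PNP, NT5E and NNMT, taken by name, with earlier results of these data known. Every non-control probe carrying one of these names in the array design was taken, which gave 15 of 34127 probes and 9 of 25940 gene names. The parental cells (CEM PA) were compared with a derivative (CEM RES) that had been selected in increasing concentrations of FK866, an inhibitor of the NAMPT enzyme, and is resistant to 100 nM. Both lines received 5 nM FK866 or DMSO (mock) for 48 h before RNA was taken. There were 3 arrays of mock-treated CEM PA, 2 of CEM PA with FK866, 4 of mock-treated CEM RES and 4 of CEM RES with FK866, 13 one-colour Agilent arrays in all. According to the Methods of the study, CEM RES were maintained in 100 nM FK866, above the 5 nM given here. The Methods describe no washout before the arrays. The mock arrays of CEM RES are therefore not from cells that had never met the drug. The study calls CEM RES a subline and, in a legend, speaks of subclones.

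NAD+ carries electrons in glycolysis and respiration and is also consumed by enzymes such as CD38, sirtuins and poly(ADP-ribose) polymerases, so cells must keep rebuilding it. NAMPT joins nicotinamide to a ribose phosphate to give nicotinamide mononucleotide (NMN), and NAPRT, listed in the array design under its older symbol NAPRT1, does the same for nicotinic acid. The NMNAT enzymes then turn either mononucleotide into the dinucleotide. NMNAT1 works in the nucleus, NMNAT2 at the Golgi and in the cytosol and NMNAT3 in mitochondria. NADK phosphorylates NAD+ to NADP+. PNP splits nicotinamide riboside and purine nucleosides, NT5E (CD73) is a nucleotidase on the cell surface, and NNMT methylates nicotinamide and so takes it out of the cycle.

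NAMPT, NADK and NMNAT1 had several detected probes, and the results turn on which probe is read, so the probe sequences are given first. They are written 5′ to 3′ in the sense of the transcript, with positions in hg19 as stated in the array files, and the probes of a gene are named by their order along transcription. No exon annotation of this build was used, and probes that may lie in untranslated sequence are shown by their first 30 bases.
NAMPT upstream probe A_33_P3364864, chr7:105912977-105913036, minus strand: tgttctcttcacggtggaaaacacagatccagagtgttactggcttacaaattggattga
NAMPT middle probe A_33_P3364869, chr7:105900561-105900620, minus strand, first 30 bases: ggaagaaggtgccgtctaggactttcataa
NAMPT downstream probe A_33_P3375934, chr7:105888793-105888852, minus strand, first 30 bases: ggagaatgtcagcttttctcccaagttgta
NADK upstream probe A_33_P3275330, chr1:1688623-1688682, minus strand: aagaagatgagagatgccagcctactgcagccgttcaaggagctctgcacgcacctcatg
NADK middle probe A_24_P389994, chr1:1685020-1685079, minus strand: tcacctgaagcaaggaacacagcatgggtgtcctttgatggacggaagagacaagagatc
NADK downstream probe A_23_P200056, chr1:1683411-1683470, minus strand, first 30 bases: ggagatgagggtttccggggctagtgatcg
NMNAT1 upstream probe A_33_P3215193, chr1:10041167-10041226, plus strand: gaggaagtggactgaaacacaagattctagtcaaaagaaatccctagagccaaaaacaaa
NMNAT1 downstream probe A_23_P201264, chr1:10045342-10045401, plus strand, first 30 bases: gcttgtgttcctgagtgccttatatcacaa

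The upstream and middle NAMPT probes lie 24184 and 11768 bases before the downstream one in the genome. The array design assigns the middle probe to a single cDNA clone and the other 2 to the NAMPT reference transcript. No stretch of 25 bases of a probe of these genes was found in any probe for another gene on the array.

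Signals are log2 intensities after quantile normalization over the 13 arrays, and 1 unit is a doubling. On each array, 26457 to 33239 of 43118 non-control spots were well above background as judged by the scanner software. Both lines carried T cell transcripts, and all 12 T cell markers looked up, CD3D, CD3E and LCK among them, were well above background on every array. Of 8 epithelial markers, 5 were so on every CEM PA array and 6 on every CEM RES array, with EPCAM on none. Of 4 B cell markers, 4 were so on every CEM PA array and 3 on every CEM RES array. Of 5 myeloid markers, 4 had a probe, and 1 (CD14) was so on every array of both lines. Of 5 fibroblast markers, 0 were so throughout either line, and 2 (COL1A1 and COL3A1) were so on no array. The lines were scanned in separate sessions, CEM PA in sessions 1 and 2 and CEM RES in session 3, so line and session cannot be told apart in any comparison between lines below.

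Testing was limited to probes for which some group had all its arrays well above background. This left 10 probes of 5 genes, NAMPT, NAPRT1, NMNAT1, NADK and PNP, all 10 of them well above background on all 13 arrays. NMNAT2, NMNAT3, NNMT and both probes of NT5E were not kept. Each gene was represented by its brightest kept probe, the downstream one for NAMPT, NMNAT1 and NADK. Tests are limma's moderated tests, two-sided, from 1 model with 4 group means, adjusted by Benjamini-Hochberg over 17594 genes, and a gene was called at an adjusted p under 0.05. Each kept probe was also tested on its own, adjusted over 22751 probes. The series description calls the samples biological replicates. In bulk RNA of this kind, less RNA per cell and fewer cells making it cannot be told apart.

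NAMPT, whose product is the target of FK866, was called lower in mock-treated CEM RES on its downstream probe and not on the other 2, and no NAMPT probe was called with FK866 in both lines. On the downstream probe, the log2 signal in mock-treated CEM PA was 11.69, 11.76 and 12.26. With FK866 it was 11.52 and 11.60 in CEM PA. Mock-treated CEM RES gave 11.25, 10.86, 11.00 and 11.29, and CEM RES with FK866 gave 11.26, 10.78, 10.97 and 11.37. All 8 CEM RES arrays were below all 5 CEM PA arrays, while both CEM RES groups covered nearly the same range. The group means ran 11.90 ± 0.31 (SD, n = 3) in mock-treated CEM PA, 11.56 ± 0.05 (n = 2) in CEM PA with FK866, 11.10 ± 0.20 (n = 4) in mock-treated CEM RES and 11.09 ± 0.27 (n = 4) in CEM RES with FK866.

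Between the mock-treated lines this probe differed by -0.81 on the log2 scale (SE 0.19, 95% interval -1.22 to -0.39, limma adjusted p = 0.00440), a 1.75-fold lower signal in CEM RES. Under FK866 the difference was -0.47 (SE 0.22, interval -0.94 to 0.01, adjusted p = 0.114), which did not pass. FK866 itself was followed by -0.34 in CEM PA (SE 0.23, adjusted p = 0.574), where the groups did not overlap and where the value was -0.16 with the replicate block and also without mock replicate 3, and by -0.0028 in CEM RES (SE 0.18, adjusted p = 1.00). The 95% intervals of these drug comparisons were -0.84 to 0.15 in CEM PA and -0.39 to 0.38 in CEM RES. The difference between the 2 responses was 0.34 (SE 0.29, adjusted p = 0.700).

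The other NAMPT probes varied more between replicates. On the middle probe the log2 signal was 9.92, 9.63 and 11.18 in mock-treated CEM PA, 10.59 and 10.45 with FK866, 10.39, 10.04, 9.72 and 10.05 in mock-treated CEM RES, and 10.55, 9.79, 9.99 and 10.63 in CEM RES with FK866. On the upstream probe it was 10.32, 8.60 and 9.37, then 10.45 and 9.47 in CEM PA, and 9.67, 9.17, 9.42 and 9.50, then 9.49, 9.09, 9.31 and 9.04 in CEM RES. On both probes the lines overlapped under mock, and replicate 2 of mock-treated CEM PA was the lowest CEM PA array. The SD of mock-treated CEM PA was 0.86 on the upstream and 0.82 on the middle probe, against 0.31 on the downstream one. Between mock-treated lines the difference was 0.01 on the upstream probe (interval -0.74 to 0.75, adjusted p = 0.986) and -0.20 on the middle probe (interval -0.92 to 0.53, adjusted p = 0.656). The interval of the middle probe includes the downstream value of -0.81, and that of the upstream probe ends just short of it. With FK866 in both lines, CEM RES differed by -0.73 on the upstream probe (interval -1.57 to 0.11, adjusted p = 0.162) and by -0.28 on the middle probe (interval -1.10 to 0.55, adjusted p = 0.601), so the values of all 3 probes were below 0 there and none passed. FK866 in CEM PA was followed by 0.53 on the upstream probe (adjusted p = 0.629) and 0.27 on the middle probe (adjusted p = 0.840), above 0 in both scan sessions and opposite in sign to the downstream probe. The mean of the 3 probes differed between lines by -0.33 under mock (adjusted p = 0.245) and by -0.49 with FK866 (adjusted p = 0.153), so the mock call for NAMPT holds for 1 of its 3 probes and is lost in their mean.

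**Figure D1:**
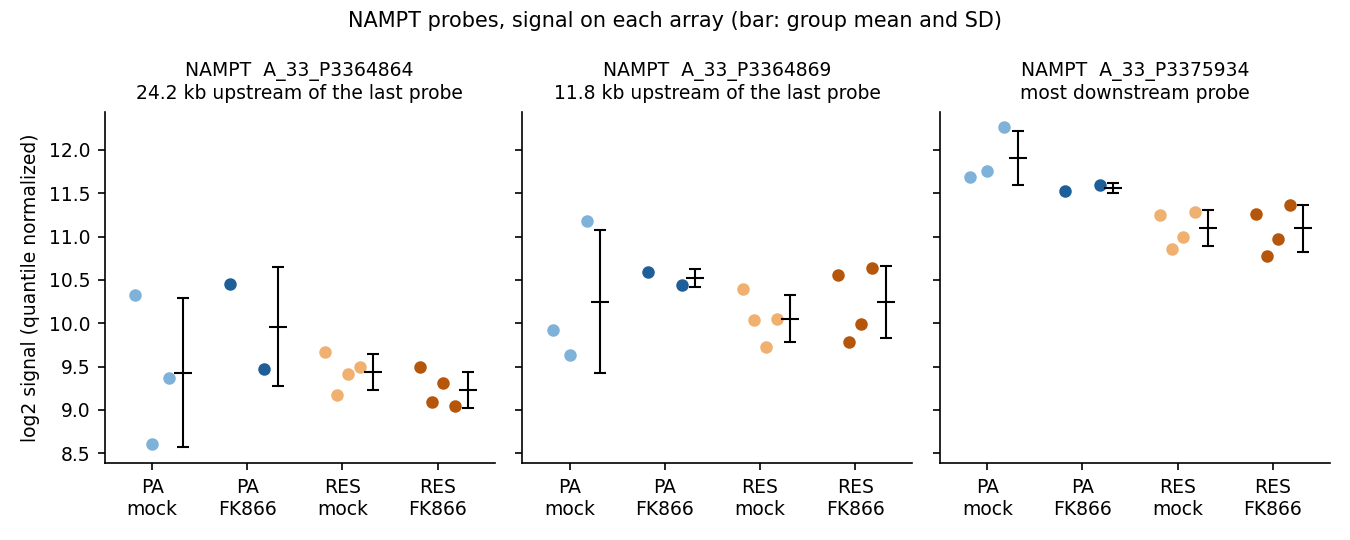
Log2 signal (y axis, quantile normalized) of the 3 NAMPT probes, ordered from upstream to downstream, in the 4 groups (x axis); points are arrays and black bars the group mean and SD. On the downstream probe all 8 CEM RES arrays lie below all 5 CEM PA arrays, and on the other 2 probes the lines overlap.

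Whether 2 probes of a gene changed unequally was tested on the difference of their log2 signals within each array. CEM RES was compared with CEM PA within mock and within FK866, by an exact two-sided permutation test over the 525 ways to exchange arrays between lines inside a treatment. Together with the drug comparisons in each line this made 21 tests over NAMPT, NADK and NMNAT1, chosen after the probe values were seen. The downstream NAMPT probe moved by -0.40 relative to the middle one (exact permutation p = 0.0305, adjusted p = 0.213) and by -0.28 relative to the upstream one (exact permutation p = 0.398, adjusted p = 0.525). Neither passed after adjustment. These tests combined mock and FK866, and none was run on the mock arrays alone, where the calls were unequal. They therefore cannot decide whether the unequal mock calls of the NAMPT probes were unequal changes. With FK866 in CEM PA the downstream probe moved by -0.87 relative to the upstream and -0.62 relative to the middle one. Each gave an exact permutation p = 0.3 (adjusted p = 0.45), where 0.1 is the smallest possible, and neither passed. Across the 13 arrays, which share 2 lines and 3 scan sessions, the downstream probe had a Pearson correlation of 0.55 with the middle and 0.17 with the upstream probe.

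NAPRT1, which opens the branch from nicotinic acid, was detected by its single probe A_23_P43238 on all 13 arrays. Its log2 signal was 6.31, 6.40 and 6.09 in mock-treated CEM PA and 6.17 and 5.84 with FK866. It was 6.34, 6.32, 6.59 and 6.24 in mock-treated CEM RES and 5.56, 6.31, 6.62 and 5.31 in CEM RES with FK866. Replicates 1 and 4 of CEM RES with FK866 were the lowest of all 13 arrays, replicate 3 was the highest, and the SD of that group was 0.62. The difference between mock-treated lines was 0.11 (interval -0.48 to 0.70, adjusted p = 0.769). The change with FK866 was -0.26 in CEM PA (interval -0.97 to 0.44, adjusted p = 0.810) and -0.42 in CEM RES (interval -0.97 to 0.13, adjusted p = 0.997). None of these passed, and every interval spanned both signs.

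NMNAT1, the nuclear enzyme that completes the dinucleotide, was the other gene called between the lines. On its downstream probe the log2 signal was 7.25, 7.53 and 7.27 in mock-treated CEM PA and 6.65 and 6.95 with FK866. In CEM RES it was 7.76, 8.08, 7.55 and 7.70 under mock and 7.33, 8.18, 7.76 and 7.89 with FK866. Both FK866 arrays of CEM PA were the lowest of the 13, and all 8 CEM RES arrays were above them. With FK866 in both lines, CEM RES was higher by 0.99 on the log2 scale (SE 0.23, interval 0.50 to 1.49, adjusted p = 0.00529), a 1.99-fold difference. Under mock the difference was 0.42 (SE 0.20, adjusted p = 0.102), with groups that did not overlap. FK866 was followed by -0.56 in CEM PA (SE 0.24, adjusted p = 0.332) and 0.02 in CEM RES (SE 0.19, adjusted p = 1.00). The difference between these responses was 0.57 (SE 0.30, adjusted p = 0.507).

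The upstream NMNAT1 probe differed in the same direction between the lines and by less. Its log2 signal was 7.16, 7.28 and 7.59, then 6.90 and 7.20 with FK866 in CEM PA, and 7.74, 7.72, 7.81 and 7.47, then 7.50, 7.76, 7.30 and 7.28 with FK866 in CEM RES. With FK866 the 4 CEM RES arrays were above both CEM PA arrays, and under mock the lines overlapped. The differences were 0.34 under mock (adjusted p = 0.113) and 0.40 with FK866 (interval -0.01 to 0.82, adjusted p = 0.117). Over both treatments the upstream probe moved by -0.34 relative to the downstream one (exact permutation p = 0.107, adjusted p = 0.373), which did not pass. On this upstream probe FK866 was followed by -0.29 in CEM PA (limma adjusted p = 0.573) and -0.23 in CEM RES (limma adjusted p = 0.953). The difference between these responses was 0.06 (limma adjusted p = 0.947), so a drop in CEM PA alone was not seen on it. The call under FK866 rests on 2 CEM PA arrays. Without CEM PA FK866 replicate 1, the downstream difference was 0.84 and no longer passed (adjusted p = 0.0817).

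NMNAT2 and NMNAT3, the cytosolic and mitochondrial counterparts, were not well above background on any of the 13 arrays. The log2 signal of NMNAT2 ranged from 1.16 to 2.34 and that of NMNAT3 from 0.91 to 3.41. The dimmest signal that counted as well above background lay between 2.01 and 4.29 depending on the array, and both genes were below their own array's value on all 13. The highest NMNAT3 value, 3.41 in replicate 3 of mock-treated CEM RES, came within 0.22 of it. No fold between groups can be given for either gene, and the values bound the signal of these probes and not the presence of the enzymes.

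NADK, which makes NADP+ from NAD+, had 3 detected probes that went different ways between the lines and with FK866 in CEM PA. On the downstream probe, which stood for the gene, the log2 signal was 11.43, 11.36 and 11.06 in mock-treated CEM PA and 10.93 and 10.85 with FK866. In CEM RES it was 11.17, 11.17, 11.27 and 10.88 under mock and 10.84, 11.08, 10.99 and 10.80 with FK866. The FK866 arrays of CEM PA were below its mock arrays, and in CEM RES the treatments overlapped. The change with FK866 was -0.40 in CEM PA (SE 0.17, adjusted p = 0.340) and -0.20 in CEM RES (SE 0.13, adjusted p = 0.997).

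On the middle NADK probe the log2 signal was 9.34, 9.24 and 8.93, then 9.51 and 9.46 with FK866 in CEM PA, and 9.30, 9.33, 9.57 and 9.24, then 8.82, 9.39, 9.29 and 8.99 with FK866 in CEM RES. On the upstream probe it was 8.14, 7.83 and 7.82, then 8.17 and 8.32 in CEM PA, and 8.56, 8.78, 8.99 and 8.56, then 8.23, 8.66, 8.45 and 7.83 in CEM RES. Here the FK866 arrays of CEM PA were above its mock arrays, by 0.32 on either probe (adjusted p = 0.528 for the middle and 0.617 for the upstream probe), opposite to the downstream probe. Relative to the downstream probe the other 2 moved by 0.71 each in CEM PA, for an exact permutation p = 0.1, the smallest that 3 and 2 arrays allow, and an adjusted p = 0.373.

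Between the mock-treated lines the upstream NADK probe was higher in CEM RES by 0.79 (SE 0.20, interval 0.36 to 1.22, adjusted p = 0.00599), a 1.73-fold difference with no overlap. The middle probe differed by 0.19 (adjusted p = 0.374) and the downstream probe by -0.16 (adjusted p = 0.387). Over both treatments, CEM RES differed from CEM PA by 0.51 more on the upstream than on the middle probe (exact permutation p = 0.00381, adjusted p = 0.0800) and by 0.48 more than on the downstream probe (exact permutation p = 0.0229, adjusted p = 0.213). With FK866 in both lines the upstream difference was 0.05 (adjusted p = 0.882). In CEM RES this probe differed by -0.43 with FK866 (adjusted p = 0.938), with -0.43 and -0.42 on the 2 slides that held the arrays. The middle probe differed by -0.24 there (limma adjusted p = 0.950), so all 3 probes were below 0 with FK866 in CEM RES and none passed. No direction for NADK between the lines was shared by its 3 probes.

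PNP, the nucleoside phosphorylase, passed no test in the 5 comparisons. The log2 signal of its single probe A_23_P140256 was 15.33, 15.78 and 14.84 in mock-treated CEM PA and 15.49 and 15.65 with FK866. In CEM RES it was 15.59, 15.70, 15.80 and 15.52 under mock and 15.48, 15.72, 15.74 and 15.53 with FK866. The 2 CEM RES groups covered the same range, and the widest spread was in mock-treated CEM PA (SD 0.47, n = 3). No spot was saturated on any array. CEM RES differed by 0.33 under mock (interval -0.09 to 0.75, adjusted p = 0.176) and by 0.05 with FK866 (interval -0.42 to 0.53, adjusted p = 0.877). The mock difference rested on single CEM PA arrays: without replicate 2 it was 0.56 and passed (adjusted p = 0.0242), without replicate 3 it was 0.09 (adjusted p = 0.686), and with arrays scaled to their 75th percentile it was 0.55 (adjusted p = 0.0386). FK866 was followed by 0.25 in CEM PA (adjusted p = 0.719) and -0.03 in CEM RES (adjusted p = 1.00).

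**Figure D2:**
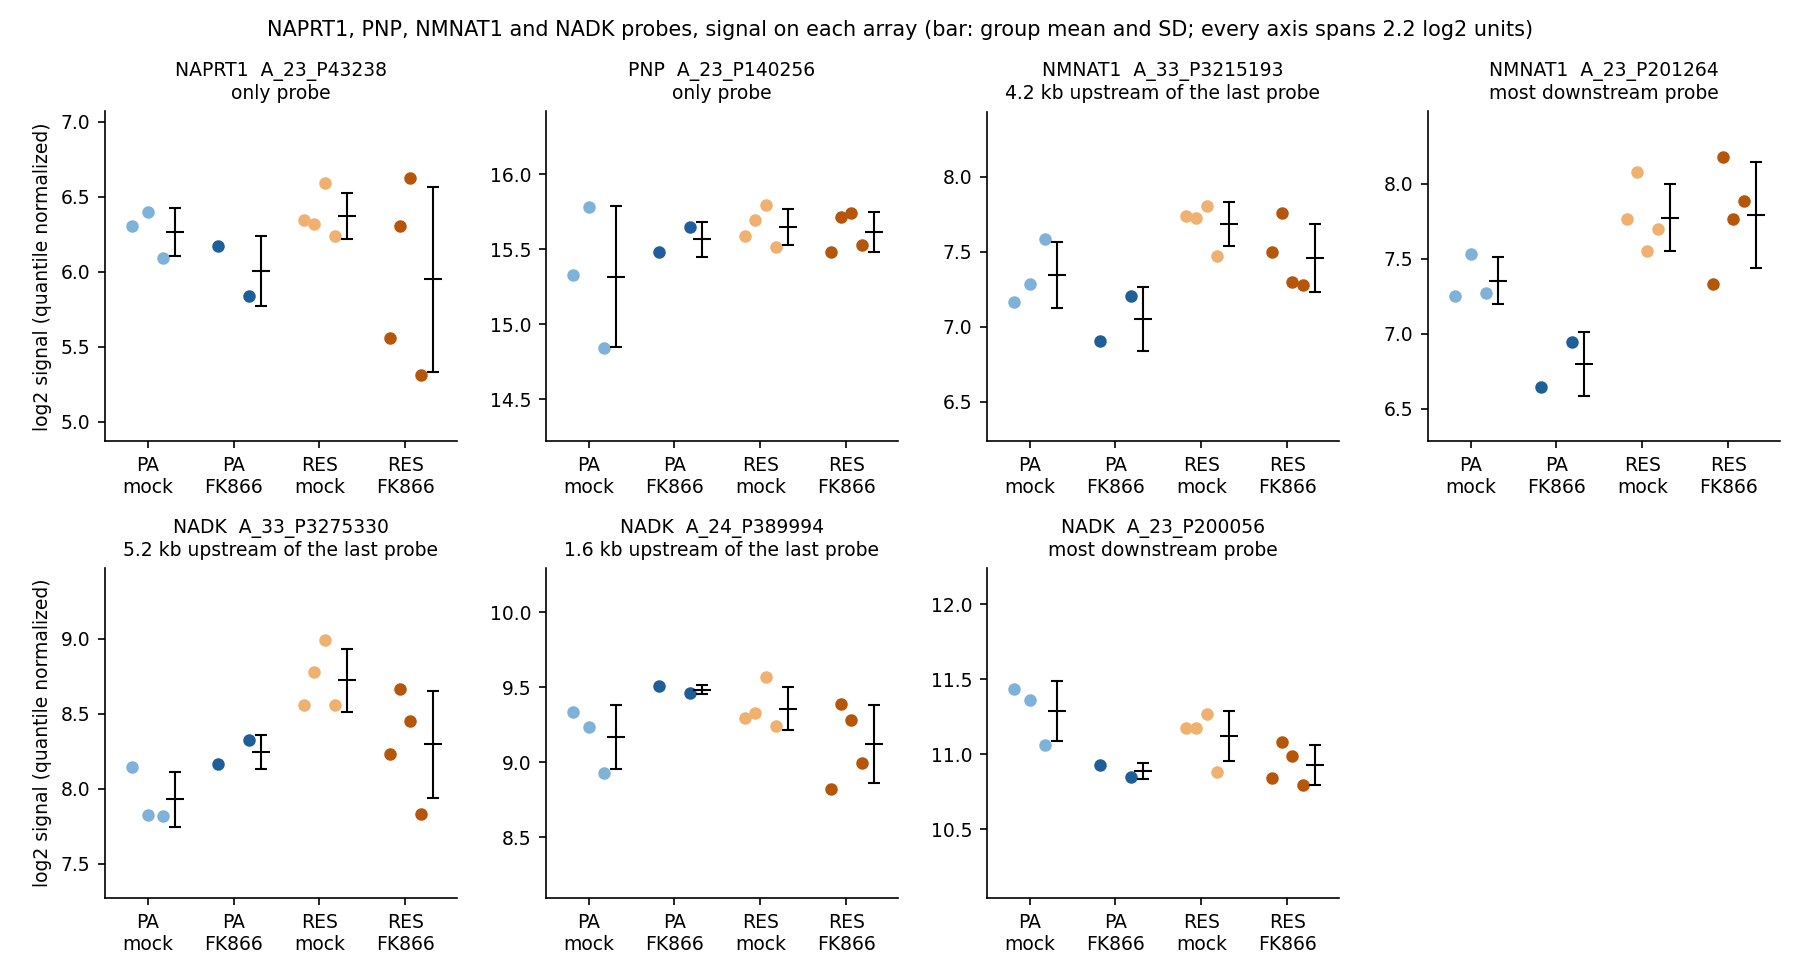
Log2 signal (y axis, quantile normalized, 2.2 units in every panel) of the detected probes of NAPRT1, PNP, NMNAT1 and NADK in the 4 groups (x axis); points are arrays and black bars the group mean and SD. The downstream NMNAT1 probe is lowest on both FK866 arrays of CEM PA, and the upstream NADK probe is higher in mock-treated CEM RES while the downstream one is not.

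NT5E and NNMT, which act on precursors outside the core steps, were at the edge of detection. Of the 2 NT5E probes, A_24_P316430 was well above background on 0 arrays (1.15 to 2.82 on the log2 scale) and A_24_P354715 on 2, replicate 3 of mock-treated CEM PA (3.11) and replicate 2 of CEM RES with FK866 (3.39). The NNMT probe A_23_P127584 was so on 1 array, replicate 3 of CEM RES with FK866 (2.77). On the other arrays the signal ranged from 1.12 to 2.85 on A_24_P354715 and from 1.43 to 2.92 for NNMT. Of these 3 arrays, 2 were of CEM RES with FK866, a different one for each gene, and no group was detected throughout. The lower bound on any fold between groups was under 1, so none is given.

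**Figure D3:**
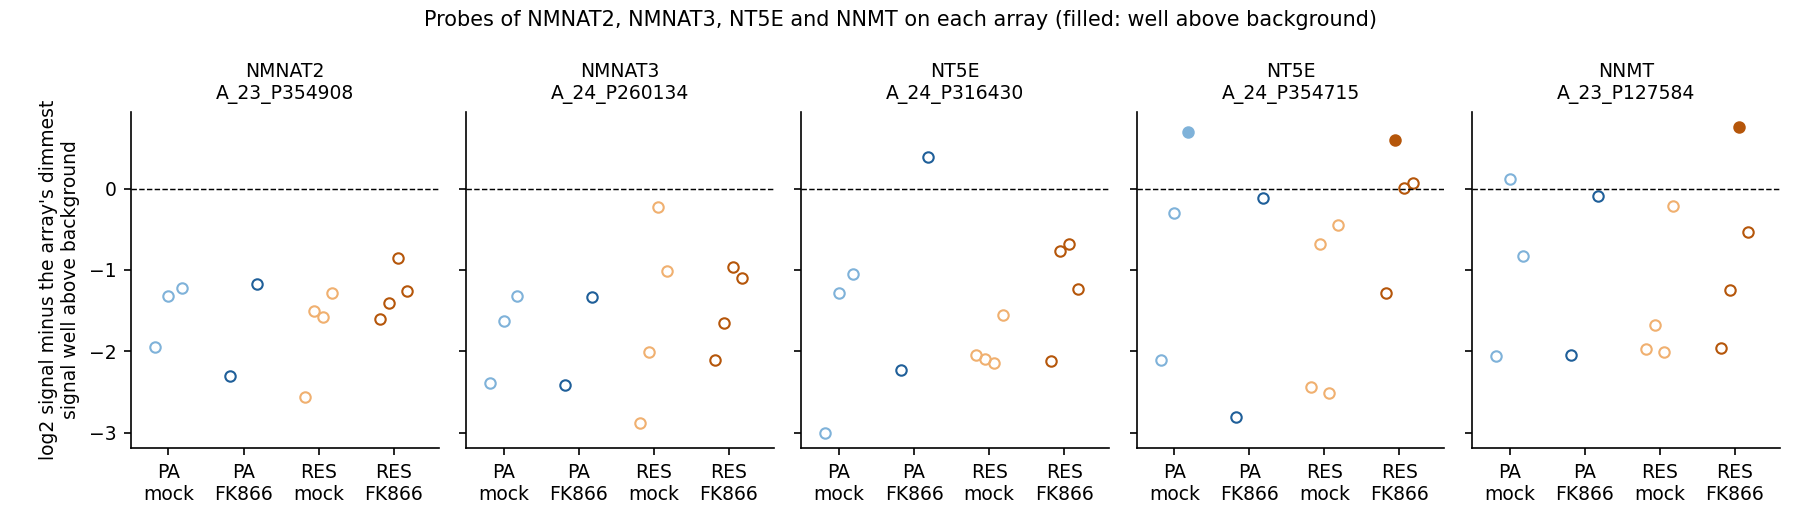
Log2 signal minus the dimmest signal that was well above background on the same array (y axis) for NMNAT2, NMNAT3, NT5E and NNMT in the 4 groups (x axis); each point is an array, filled where the probe was well above background. NT5E A_24_P354715 has 2 filled points and NNMT 1, and NMNAT2 and NMNAT3 lie below 0 on all 13 arrays.

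Over the 5 genes tested, FK866 against mock gave 0 calls in CEM PA, where 0.512% of all genes were called, and 0 in CEM RES, where 0% were. At an unadjusted p under 0.05 the counts were 2 in CEM PA (NMNAT1 and NADK, background 13.5%) and 0 in CEM RES (background 4.78%). In CEM PA the 2 treatments did not overlap for 3 genes, NAMPT, NMNAT1 and NADK, all lower with FK866 on the probe that stood for the gene, against 18.9% of all genes lower without overlap and 34.4% in either direction. In CEM RES they overlapped for all 5 (background 2.52%). Within the CEM PA scan sessions the change with FK866 was -0.17 and -0.41 for NAMPT, -0.61 and -0.46 for NMNAT1 and -0.51 and -0.36 for NADK, from 1 mock and 1 FK866 array in session 1 and 2 and 1 in session 2. Each CEM PA array of session 2 was on a slide of its own, so treatment and slide cannot be told apart there. The other probes of NAMPT and NADK gave values above 0 in both sessions. The median change of the 5 genes was -0.34 in CEM PA and -0.03 in CEM RES, beside -0.02 and -0.01 for all genes. The difference between both responses gave 0 calls, with 0.131% of all genes called. Probe by probe, 0 of 10 were called for FK866 in CEM PA (background 1.53%), in CEM RES (0%) or for the difference between responses (0.413%).

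Between the mock-treated lines 1 of 5 genes was called, NAMPT, where 47.7% of all genes were called and 23% were called lower. With FK866 in both lines 1 of 5 was called, NMNAT1, where 35.5% of all genes were called and 18.6% were called higher. Neither share (20%) stands above that of all genes called in either direction, and both lie near the share called in 1 direction. The lines did not overlap for 2 of 5 genes under mock, NAMPT and NMNAT1 (48.8% of all genes), and for the same 2 with FK866 (57.7%). These comparisons share arrays with the drug comparisons, and the values above are therefore each comparison's own. Probe by probe, 2 of 10 were called between the mock-treated lines (background 47.6%), 1 lower (NAMPT downstream) and 1 higher (NADK upstream), and 1 of 10 under FK866 (background 36%). On the linear scale, the summed signal of the epithelial markers was also higher in mock-treated CEM RES (2980 to 4567) than in mock-treated CEM PA (2043 to 2804), as was that of the T cell markers (180247 to 195323 against 160665 to 179242) and of the myeloid markers (94.1 to 142 against 68.4 to 93.0). That of the B cell markers was 2197 to 3580 against 3576 to 4110, and that of the fibroblast markers 12.3 to 39.2 against 26.5 to 44.7. A linear sum is set mainly by its brightest markers, CD3D among the T cell ones. In mean log2 signal over each line's arrays, CD5 (9.99 against 11.91), PTCRA, CD2, LCK and ZAP70 were lower in CEM RES. CD3G (14.53 against 13.43), CD3E, CD3D, CD247, CD7, TRAT1 and CD1A were higher. The part of these markers in the differences between lines was not tested.

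**Figure D4:**
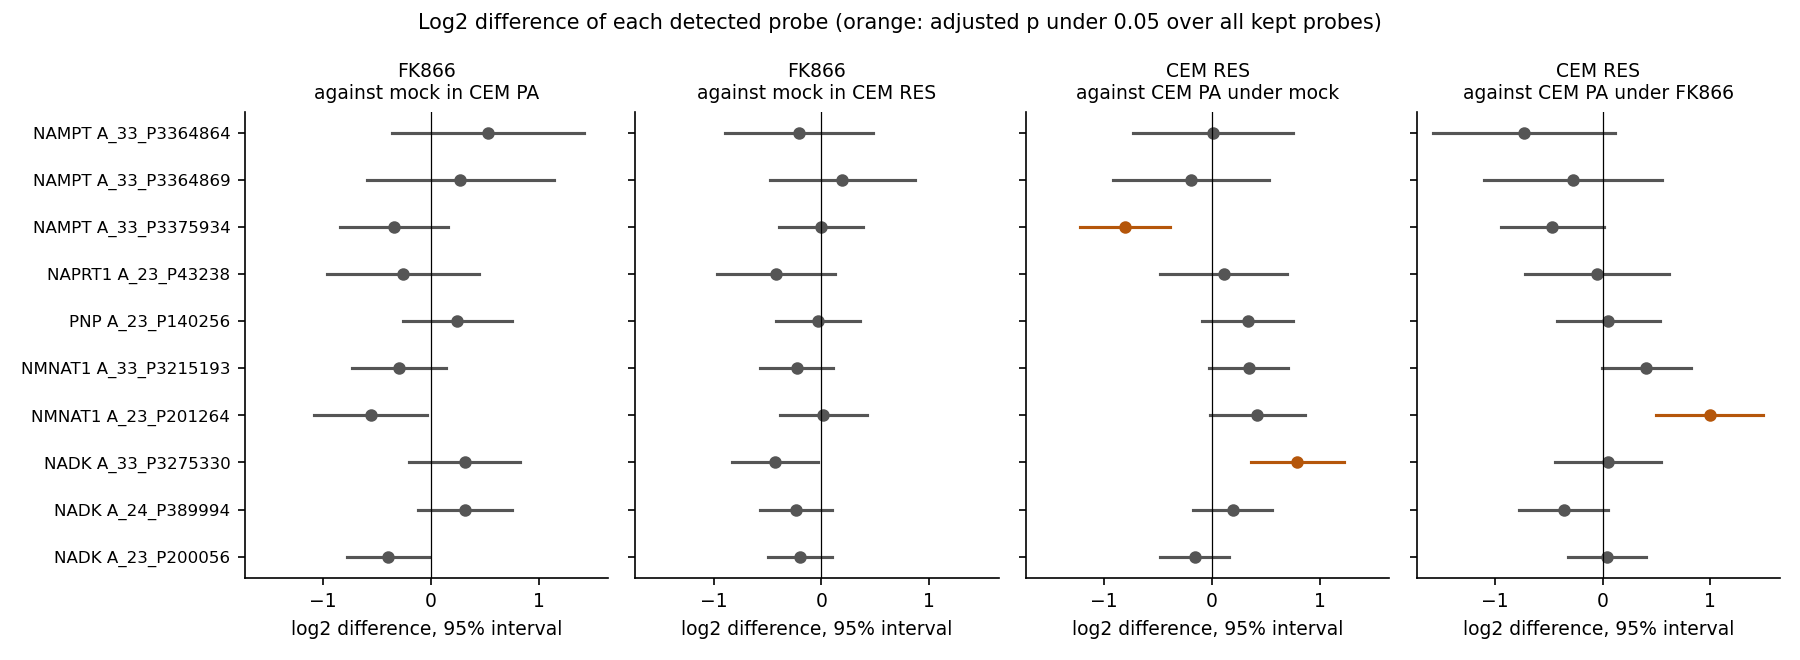
Log2 difference (x axis) with its 95% interval for each of the 10 detected probes (rows) in 4 comparisons (panels), from the fit over all kept probes; orange marks an adjusted p under 0.05. Orange points are NAMPT A_33_P3375934 at -0.81 and NADK A_33_P3275330 at 0.79 between the mock-treated lines, and NMNAT1 A_23_P201264 at 0.99 under FK866.

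The rest of NAD+ metabolism was followed through 35 further genes, covering synthesis from tryptophan, the riboside kinases, NAD+ breakdown, other nucleotidases, the methyl donor cycle and transport. Of these, 1 (NADK2) had no probe of its name, 10 were not kept by the filter and 24 were tested. Neither drug comparison nor the difference between them called any of the 24 by limma, with 3 in CEM PA, 0 in CEM RES and 3 for the difference at an unadjusted p under 0.05 (13.5%, 4.78% and 11.1% of all genes). Between the mock-treated lines 10 of 24 (41.7%) were called, 6 higher and 4 lower in CEM RES, close to the 47.7% of all genes. Their median difference was 0.22, beside 0.04 for all genes.

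IDO1, which opens the breakdown of tryptophan, entered the test through CEM RES alone. Its log2 signal averaged 5.78 ± 0.69 (SD, n = 4) in mock-treated CEM RES and 2.61 ± 0.69 (n = 3) in mock-treated CEM PA, a difference of 3.16 (adjusted p = 0.000125). It was well above background on all 4 of the first arrays and on 1 of the 3 others, so the low side is poorly measured and neither the size nor the p is that of a gene measured in both lines. KMO, a later step of the same route, was higher by 0.77 (adjusted p = 0.0142). QPRT, which joins that route to NAD+ synthesis, differed by -0.02 (adjusted p = 0.951).

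Also higher were SLC29A1, a nucleoside transporter, by 0.92 (adjusted p = 0.00198), CD38, an NAD+ glycohydrolase, by 0.78 (adjusted p = 0.00435), and AHCY, which clears the product of methyl transfer, by 0.76 (adjusted p = 0.0242). Lower were NT5M, a mitochondrial nucleotidase, by -0.97 (adjusted p = 0.0185), the transporter SLC22A13 by -0.78 (adjusted p = 0.0213) and NADSYN1, which completes NAD+ on the nicotinic acid branch, by -0.72 (adjusted p = 0.00640). ENPP1, a surface enzyme that splits nucleotides, was among the 4 called lower but entered the test through CEM PA with FK866 alone. Under mock its log2 signal averaged 4.20 in CEM PA, well above background on 2 of 3 arrays, and 3.36 in CEM RES, on 0 of 4, so no size is read from it. NMRK1, the nicotinamide riboside kinase listed as C9orf95, differed by -0.43 and did not pass (adjusted p = 0.0641).

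With FK866 in both lines 5 of 24 (20.8%) were called, where 35.5% of all genes were. All 5 were higher in CEM RES, against 18.6% of all genes called higher. They were IDO1 by 2.56 (adjusted p = 0.00191, again well above background on only 1 of 2 CEM PA arrays), CD38 by 0.90 (adjusted p = 0.00576), KMO by 0.77 (adjusted p = 0.0347), SLC29A1 by 0.63 (adjusted p = 0.0385) and NT5C, a cytosolic nucleotidase, by 0.53 (adjusted p = 0.0129). All 5 were also among the 6 called higher under mock, in a comparison of other arrays of the same lines and sessions. IDO1 entered both counts through a filter that it passed in CEM RES alone.

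**Figure D5:**
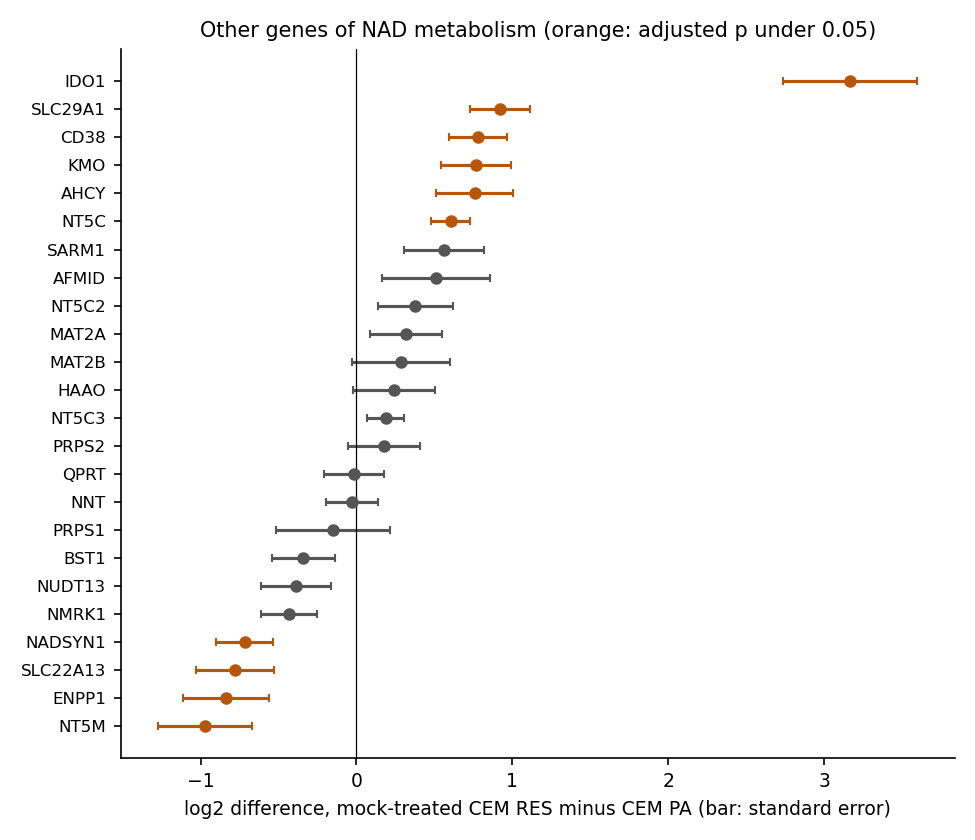
Log2 difference between mock-treated CEM RES and CEM PA (x axis, bars are the standard error) for the 24 tested genes of NAD+ metabolism outside the salvage set (rows); orange marks an adjusted p under 0.05. IDO1 stands at 3.16 with 1 of 3 CEM PA arrays well above background, ENPP1 was so on 0 of 4 CEM RES arrays, and 10 of the 24 are orange, 6 to the right and 4 to the left of 0.

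The genes whose signal followed the downstream NAMPT probe most closely over the 13 arrays were CMTM4 (Pearson r = 0.983), SKAP1 (0.982), C4orf3 (0.980), C13orf16 (0.980) and HPCAL1 (0.978). All 5 were lower in mock-treated CEM RES, by -1.29 to -2.34 on the log2 scale. For PNP they were MC3R (0.909), DERL2 (0.901), the transcript ENST00000390452 (0.899), ANAPC13 (0.895) and C21orf90 (0.872). The arrays share lines and sessions, and the 5 for each were picked as the highest of all genes, so these correlations are a description only.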

How the data were processed

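The authors deposited one file per array with the spot intensity written by Agilent Feature Extraction 10.7.7.1 (version from the submitters' processing notes), corrected for background within the array only. A log2 table that the authors had quantile normalized was also deposited and served as an alternative. From the intensities, control spots were dropped, outlier spots set to missing, log2 values quantile normalized and the spots of a probe averaged. Detection calls and bounds followed the scanner's flag for signal well above background. Tests used limma 3.58.1 in R 4.3.3, and exact permutation tests covered pairs of probes. Files were read with Python 3.11.15, pandas 2.3.3 and numpy 2.4.6, and figures drawn with matplotlib 3.10.9. The procedure was tested on simulated data. Precision is set by the number of arrays and by how far a signal lies above background. Replicate arrays correlated at 0.978 to 0.991 across genes.

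Samples were grouped by the line and treatment in their labels. The genes, the lists and the tests were chosen with earlier results of these data known. Named are all 9 genes with every probe, up to 5 called genes of the NAD+ list in each direction, QPRT and NMRK1 (added after their values were seen), markers, and the 5 genes most like NAMPT and PNP. Mock and FK866 arrays of equal number deviated together from their group means. The correlation across genes was 0.342 to 0.440 in CEM PA, where 2 FK866 arrays make the deviations mirror images, and 0.217 to 0.484 in CEM RES. In CEM PA, mock replicate 3 and FK866 replicate 2, of the same scan session, also correlated at 0.234. CEM PA arrays of equal number shared a scan session, so number and session cannot be told apart there. The numbers were taken as pairs within a line in the replicate block only. The main fit and the permutation tests did not use the pairs.

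Alternatives were 75th percentile scaling, normexp background correction (offset 50), no or a stricter filter, outlier spots kept, fits to the deposited log2 table, averaging or separating the probes of a gene, fits limited to the compared groups, blocks by replicate, slide or scan session, array weights, an intensity trend and each array left out in turn.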

Additional observations from a re-analysis of the deposited data

How the results depend on the processing

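The 0 calls for FK866 in either line and for the difference between the responses held in all alternatives run. With the replicate block, 0 genes were called in each of these 3 comparisons, and the NADK change in CEM PA was -0.51 (adjusted p = 0.0785). Blocking by replicate changed no other call. It was not run between lines, since a number pairs arrays only within a line. Calls between mock-treated lines were 2 with 75th percentile scaling, 0 with the mean of probes and 2 with every probe separately, and 1 to 2 with an array left out. Under FK866 they were 0 with normexp, where the upstream NMNAT1 probe stood for the gene (0.26, adjusted p = 0.156), and 0 to 1 with an array left out. NAMPT between mock-treated lines ranged from -0.91 to -0.63 without single arrays. The 75th percentile alternative shifted the median over all genes from 0.04 to 0.16 between mock-treated lines and from 0.09 to 0.22 under FK866.

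Changes of sign touched only uncalled values, and their cause was not tested. Between lines under FK866, NADK became -0.043 (75th percentile), -0.056 (normexp), -0.092 (mean of probes) and -0.0050 (deposited table), NAPRT1 0.31 (75th percentile) and 0.0079 (normexp), and PNP -0.020 (75th percentile), -0.0014 (normexp) and -0.0050 (deposited table). With the mean of probes, NADK became 0.27 between mock-treated lines, 0.079 for FK866 in CEM PA and -0.37 for the difference between responses, and NAMPT 0.15 and -0.16 for the last 2. For FK866 in CEM RES, NAMPT became 0.0083 with outlier spots kept and 0.020 in the deposited table, NMNAT1 -0.0020 (75th percentile), -0.19 (normexp) and -0.11 (mean of probes), and PNP 0.0030 with array weights. With single arrays left out, the values that crossed 0 ranged as follows. Under FK866 between lines, NADK ran from -0.014 to 0.080, NAPRT1 from -0.28 to 0.16 and PNP from -0.032 to 0.13. For FK866 in CEM RES, NAMPT ran from -0.094 to 0.10, NMNAT1 from -0.11 to 0.17 and PNP from -0.077 to 0.015. The NAPRT1 difference between responses ran from -0.39 to 0.053.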
